A study of Mus musculus with 36 samples.

Results

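Neutrophils and monocytes are drawn into inflamed liver by a small set of secreted chemokines. The transcripts of 7 of them, Cxcl1, Cxcl2, Ccl2, Ccl3, Ccl4, Ccl5 and Ccl7, were followed here in mouse liver after bacterial lipopolysaccharide (LPS), or endotoxin. They were chosen by name, as chemokines that attract neutrophils or monocytes, and make up 7 of the 34829 genes in the expression table. All 7 were found in it. The animals were C57BL6/J mice housed at 22 °C or at 30 °C, and liver RNA was taken 0, 4, 12 or 24 h after LPS was injected. At 22 °C there were 4 libraries at 0 h, 4 at 4 h, 5 at 12 h and 5 at 24 h. At 30 °C there were 5, 4, 4 and 5 libraries at the same times. The age and sex of the mice and the dose of LPS were not given in the sources used here. No later group without LPS was analysed here, so time since injection and any other change over the day cannot be told apart. The labels do not say that each library is a separate animal, and the p-values measure the spread between these libraries.

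Chemokines are small secreted proteins that bind G protein-coupled receptors on leukocytes and steer them along a concentration gradient. CXCL1 and CXCL2 act through CXCR2, which is carried mainly by neutrophils. CCL2 and CCL7 act through CCR2 and call monocytes out of bone marrow and blood, and CCL3, CCL4 and CCL5 attract monocytes, macrophages and T cells. LPS is sensed by TLR4 with CD14 on Kupffer cells, the resident liver macrophages, and on other liver cells. The pathway leads, among other branches, to the transcription factor NF-kB, under which chemokine genes are induced within hours.

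The 7 genes lie in clusters on 2 chromosomes. In GENCODE coordinates on the GRCm38 build, Cxcl1 (chr5:90891241-90893115) and Cxcl2 (chr5:90903871-90905938) are neighbours on the plus strand of chromosome 5. On chromosome 11, Ccl2 (chr11:82035571-82037453) lies next to Ccl7 (chr11:82045712-82047525), both on the plus strand. Further along, Ccl5 (chr11:83525778-83530518) and Ccl3 (chr11:83647844-83649355) are on the minus strand and Ccl4 (chr11:83662584-83664683) is on the plus strand. RefSeq promoter sequence, on GRCm38.p6, was matched for 3 of the 7 genes, namely Cxcl1, Cxcl2 and Ccl3. The 120 bases before the GENCODE start of Cxcl1 (chr5:90891121-90891240) and of Cxcl2 (chr5:90903751-90903870) are printed because the pair rose together. Capitals mark an NF-kB type motif and, nearer the start, a TATA type motif.
Cxcl1: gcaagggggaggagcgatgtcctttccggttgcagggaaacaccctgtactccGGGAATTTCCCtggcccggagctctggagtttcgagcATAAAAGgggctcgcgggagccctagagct
Cxcl2: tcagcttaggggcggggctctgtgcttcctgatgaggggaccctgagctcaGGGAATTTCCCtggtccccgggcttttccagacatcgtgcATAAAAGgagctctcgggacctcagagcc
GGGAATTTCC stands at -67 to -58 from the start of Cxcl1 and at -69 to -60 from the start of Cxcl2. It lies within the palindrome GGGAATTTCCC, so the general NF-kB consensus was met on both strands by overlapping letters. ATAAAAG stands at -30 to -24 in Cxcl1 and at -29 to -23 in Cxcl2. The longest run common to both promoters was GGGAATTTCCCTGG, 14 bases. Of 32851 RefSeq promoter windows of 250 bases, searched on both strands, 28 (0.0852%) held GGGAATTTCC, 3.9% held the NF-kB consensus and 4.83% held ATAAAAG. The window of Ccl3 held neither these motifs nor the others searched, TGANTCA (found in 6.75% of windows) and TTGCNNAA (9.56%). A match describes the letters and does not show that a factor binds there.

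Expression was measured by a modified CEL-Seq2 method, which reads the 3′ ends of transcripts. Values are given as the deposited signal, reads per base rescaled between libraries. The libraries held an estimated 557000 to 2744000 reads each (median 1009000), and 3 reads in a library corresponded to a signal of 1.33 to 5.05. Within groups, pairs of libraries correlated at 0.775 to 0.932. Replicate 4 of the 30 °C 4 h group stood apart: 144 genes were over 5 times higher in it than in any other library and took 30.4% of its signal. Without it the 7 genes were still called higher at 4 h at 30 °C, by 4.99 to 6.09 (log2), and 6 of 7 lower at 12 h than at 4 h. The 9 hepatocyte markers in the table had a summed signal of 38790 to 83540 per library, and none was at 0 throughout a group. In bulk liver RNA, fewer cells of a type and less RNA per cell cannot be told apart. The 6 genes other than Cxcl1 were close to the limit of detection at 0 h: 45 of their 54 values stood under 3 reads and 20 were 0. Their fitted differences from 0 h therefore depend on the 1 added to the signal before the log2 was taken. Ratios of pooled reads to those at 0 h, with exact 95% intervals, are given for each of the 6, and these intervals cover counting error only.

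All 7 chemokine transcripts rose at 4 h, at both housing temperatures. The log2 differences from 0 h ran from 4.95 to 6.53 at 22 °C and from 4.84 to 6.09 at 30 °C, each with a Benjamini-Hochberg adjusted p of at most 5.42e-09 (limma). Of the 8702 genes tested, 15.8% were called higher at 22 °C and 17.8% at 30 °C, and the median difference over all tested genes was -0.10 and -0.04. In all 7 genes the lowest 4 h library was above the highest 0 h library at the same temperature, which held for 15.7% of tested genes at 22 °C and 14.3% at 30 °C. All 7 passed the filter on low values (a mean signal of at least 5 over the 36 libraries), which 6 of them reached only through the groups after LPS. The comparisons of 4, 12 and 24 h share their 0 h libraries.

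**Figure D1:**
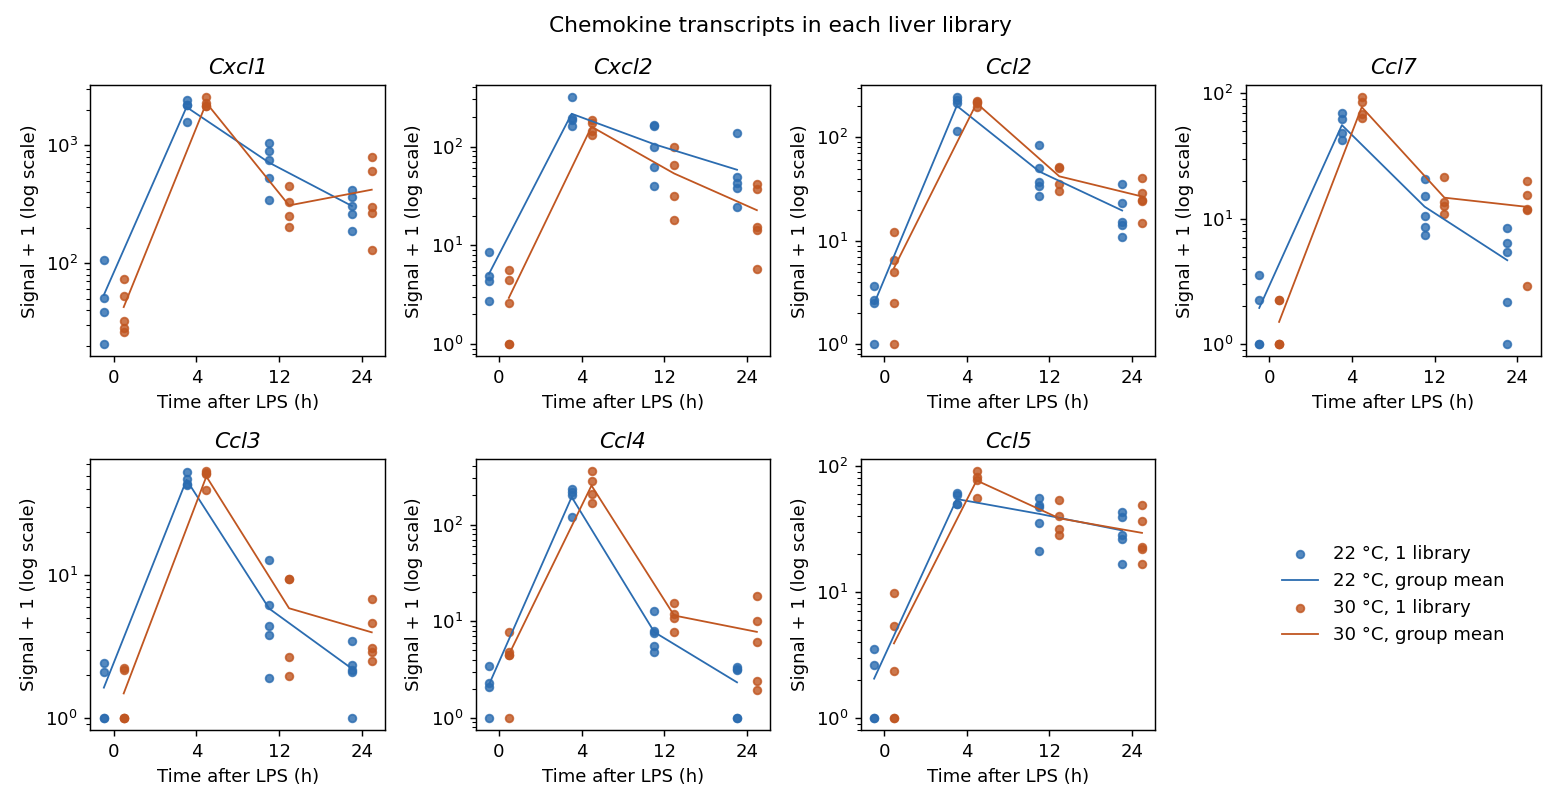
Signal of the 7 chemokine transcripts in each of 36 liver libraries (points) with group means (lines), plotted as signal + 1 on a log axis against the time after LPS, with the sampling times spaced evenly. In every panel both temperatures are highest at 4 h, where Cxcl1 reaches 1585 to 2559, and Ccl5 keeps the largest share of its peak at 24 h.

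Cxcl1, a CXCR2 ligand, was the only one of the 7 well above the detection limit before LPS. At 0 h its signal was 37.9, 49.2, 19.5 and 105 in the 22 °C libraries and 51.3, 31.2, 72.5, 26.9 and 25.1 in the 30 °C libraries. At 4 h it was 2214, 1585, 2206 and 2444 at 22 °C and 2154, 2559, 2286 and 2167 at 30 °C. The 4 h libraries of both temperatures thus fell into a narrow band far above 0 h, at 40.0 times the 0 h mean at 22 °C and 55.4 times at 30 °C. At 12 h the values were 887, 1051, 527, 751 and 343 at 22 °C and 251, 331, 450 and 201 at 30 °C, and 1 of the 22 °C libraries lay within the 30 °C range. At 24 h they were 262, 303, 414, 185 and 360 at 22 °C and 796, 296, 608, 130 and 268 at 30 °C. The 30 °C libraries were widely scattered at 24 h and spanned the whole 22 °C range. Cxcl1 was still 2.70 ± 0.41 (log2, SE) above 0 h at 24 h at 22 °C (limma, adjusted p = 2.7e-06) and 3.16 ± 0.39 above it at 30 °C (adjusted p = 7.62e-08).

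Cxcl2 encodes the second CXCR2 ligand, also known as MIP-2. Its 0 h signal was 3.38, 7.56, 1.74 and 3.89 at 22 °C and 0, 3.48, 4.62, 1.6 and 0 at 30 °C. At 4 h it reached 186, 194, 160 and 314 at 22 °C and 129, 172, 144 and 186 at 30 °C. Pooled reads were 48.3 times those at 0 h at 22 °C (95% interval 28.6 to 88.8) and 85.9 times at 30 °C (41.5 to 214). The separation from 0 h was complete at both temperatures. At 12 h the signal was 97.4, 163, 61.1, 162 and 38.7 at 22 °C, where 2 libraries reached the 4 h range, and 63.3, 30.2, 17 and 98.7 at 30 °C, where none did. At 24 h it was 48, 23.6, 42.1, 36.8 and 136 at 22 °C and 14.2, 40.4, 35.8, 13.1 and 4.83 at 30 °C. Replicate 5 of the 22 °C group stood far above the rest at 24 h. Among the annotated transcripts, 7.59% of the 31-base words of Cxcl2 also occur in Cxcl3, so reads from such stretches could be assigned to either gene.

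Ccl2, which encodes the monocyte attractant MCP-1, rose from near 0. At 0 h its signal was 0, 2.64, 1.52 and 1.7 at 22 °C and 5.52, 0, 4.04, 11.2 and 1.5 at 30 °C. At 4 h it was 231, 244, 114 and 217 at 22 °C and 216, 219, 194 and 223 at 30 °C. Pooled reads rose 130-fold at 22 °C (55.3 to 401) and 46.6-fold at 30 °C (29.4 to 79.0). Only 5 and 18 reads were pooled at 0 h, and the 4 h levels of the temperatures overlapped. At 12 h the signal had fallen to 26.2 to 84.1 at 22 °C and to 29.5 to 50.5 at 30 °C. At 24 h it was 9.78, 22.1, 13.1, 14.1 and 34.1 at 22 °C and 28.2, 23.8, 39.9, 13.8 and 23.5 at 30 °C, above the 0 h libraries of the same temperature in every case.

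Ccl7, the neighbour of Ccl2 and a second CCR2 ligand (MCP-3), rose and fell at a lower level. Between 0 and 2 reads were estimated in each 0 h library. At 4 h the signal was 47.4, 68.7, 41.6 and 61.8 at 22 °C and 84.3, 62.6, 67.8 and 92.1 at 30 °C. Pooled reads were 59.3 times those at 0 h at 22 °C (20 to 290) and 157 times at 30 °C (43.3 to 1300), intervals that are wide because only 3 and 2 reads were pooled at 0 h. At 24 h the signal was 1.17, 7.38, 4.38, 0 and 5.42 at 22 °C and 14.6, 10.8, 18.8, 1.92 and 11.1 at 30 °C. In 4 of the 5 libraries at 30 °C it exceeded every 22 °C library, and replicate 4 was low. Ccl7 was called above 0 h at 24 h at 30 °C (2.92 ± 0.49, limma adjusted p = 1.63e-05) and not at 22 °C (1.11 ± 0.52, adjusted p = 0.0913). The pooled read ratios were 21.7 (5.81 to 183) and 3.77 (1.07 to 20.3). The 22 °C call was gained without replicate 3 of the 0 h group (adjusted p = 0.0368) and without replicate 4 of the 24 h group (0.011).

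Ccl3 and Ccl4 encode MIP-1α and MIP-1β, made mainly by macrophages and other myeloid cells and by activated lymphocytes. Of the 7 genes these kept the lowest shares of their peak at 12 h. Ccl4 stood at 2.46, 1.1, 1.27 and 0 at 22 °C and 3.45, 3.8, 6.74, 3.5 and 0 at 30 °C at 0 h. At 4 h it reached 215, 233, 118 and 201 at 22 °C and 282, 357, 165 and 205 at 30 °C. Pooled reads were 154 times those at 0 h at 22 °C (60.1 to 568) and 75.8 times at 30 °C (44.2 to 143). By 12 h it was 11.6, 6.92, 6.63, 3.86 and 4.55 at 22 °C and 10.8, 14.4, 9.92 and 6.69 at 30 °C, far below every 4 h library. At 24 h it was 2.33, 0, 2.19, 2.14 and 0 at 22 °C and 1.39, 9.02, 17.4, 0.958 and 5.03 at 30 °C. All 22 °C libraries were then under 3 reads, as they were at 0 h, so no fold is given for that pair.

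Ccl3 was the least abundant of the 7 at the peak. Each 0 h library held 0 or 1 estimated read. At 4 h the signal was 46.3, 42, 42.6 and 51.6 at 22 °C and 52.8, 38.5, 50.3 and 51.5 at 30 °C, the tightest of the 22 °C peaks with a coefficient of variation of 9.67%. Pooled reads were 72.8 times the 2 reads of 0 h at 22 °C, after scaling for depth (19.9 to 606), and 97.5 times the 2 at 30 °C (26.7 to 809). At 12 h it ranged from 0.91 to 11.9 at 22 °C and from 0.983 to 8.48 at 30 °C. At 24 h the 22 °C libraries were all under 3 reads, and the 30 °C libraries held 2.08, 3.61, 5.8, 1.92 and 1.51. Those 5 values all lay above the 0 h libraries of 30 °C, although replicates held only 2 to 6 reads, and the pooled ratio was 5.15 (1.23 to 45.7). The 24 h call at 30 °C (1.43 ± 0.46, limma adjusted p = 0.018) was lost without replicate 3 of that 24 h group (adjusted p = 0.0617) and with 5 added to the signal in place of 1 (0.08).

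Ccl5, also called RANTES, attracts T cells as well as monocytes, and it kept the largest share of its peak at 12 and 24 h. At 0 h its signal was 0, 2.55, 0 and 1.64 at 22 °C and 0, 8.8, 0, 1.35 and 4.36 at 30 °C. At 4 h it was 48.5, 48.7, 59.6 and 57.2 at 22 °C and 89.9, 76.7, 81 and 54.4 at 30 °C. Pooled reads were 57.1 times those at 0 h at 22 °C (19.3 to 279) and 24.9 times at 30 °C (14.1 to 48.6). At 12 h it was 54.5, 48.1, 34, 46.1 and 20 at 22 °C and 27.3, 30.4, 39.2 and 52.3 at 30 °C, so that the 22 °C libraries overlapped those of 4 h and the 30 °C libraries did not. At 24 h it was 41.8, 38.4, 25.4, 27.3 and 15.7 at 22 °C and 35.3, 48, 21.8, 21.1 and 15.7 at 30 °C. Every 24 h library was above every 0 h library of its temperature. The difference from 0 h at 24 h was 4.06 ± 0.48 at 22 °C (limma adjusted p = 2.55e-08) and 3.38 ± 0.46 at 30 °C (adjusted p = 4.1e-07). The pooled reads at 24 h were 32.0 times (10.7 to 157) and 9.48 times (5.31 to 18.7) those at 0 h.

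At 12 h all 7 transcripts were still called above 0 h at both temperatures, against 20.7% of tested genes called higher at 22 °C and 19.3% at 30 °C. For Ccl4 at 30 °C this call (1.57 ± 0.55, limma adjusted p = 0.0225) was lost without replicate 5 of the 0 h group (0.103), without replicate 2 of the 12 h group (0.0684) and with no filter on low values (0.0561), and its pooled read ratio was 3.13 (1.67 to 6.3). At 24 h the count was 4 of 7 at 22 °C (Cxcl1, Cxcl2, Ccl2 and Ccl5), against 19.0% of tested genes. It was 6 of 7 at 30 °C, all but Ccl4, against 15.3%.

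The decline set in between 4 and 12 h. At 22 °C 5 of the 7 fell in that step, against 14.4% of tested genes called lower. The exceptions were Cxcl2 (-1.18 ± 0.57, limma adjusted p = 0.127) and Ccl5 (-0.46 ± 0.48, adjusted p = 0.524), and Cxcl2 was called when its 2 groups were fitted alone (0.0434). At 30 °C 6 of the 7 fell, against 17.9%, and Ccl5 was the exception (-1.02 ± 0.51, adjusted p = 0.132). Ccl5 was called there with 5 added to the signal (0.0187), with its 2 groups fitted alone (0.0122) and with library weights (0.0412). The fall of Cxcl2 at 30 °C (-1.85 ± 0.60, adjusted p = 0.0175) was not called without replicate 2 (0.0528) or replicate 3 (0.09) of the 12 h group. The steepest fall was that of Ccl4, by 4.68 ± 0.55 at 22 °C (adjusted p = 1.28e-07) and by 4.45 ± 0.58 at 30 °C (adjusted p = 3.07e-07). Between 12 and 24 h, 3 of the 7 fell at 22 °C, against 6.60% of tested genes, and 0 of the 7 at 30 °C, against 9.52%. At 30 °C, Cxcl2 alone had an unadjusted p under 0.05 in that step (-1.27 ± 0.57, limma adjusted p = 0.113), and it was called without replicate 3 of the 12 h group (0.0468).

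The 3 that fell from 12 to 24 h at 22 °C were Ccl4 (-1.85 ± 0.52, limma adjusted p = 0.0162), Ccl7 (-1.68 ± 0.49, adjusted p = 0.0217) and Cxcl1 (-1.17 ± 0.39, adjusted p = 0.0485). These calls were close to the threshold. That of Cxcl1 was lost without any of replicates 1 to 4 at 12 h or replicates 1, 2, 4 and 5 at 24 h (adjusted p = 0.0571 to 0.143). That of Ccl4 was lost without replicate 1 at 12 h or replicates 2 and 5 at 24 h (0.0529 to 0.0581). That of Ccl7 was lost without replicates 2 and 4 at 12 h or 1 and 4 at 24 h (0.051 to 0.106). With no filter Cxcl1 (0.127) and Ccl7 (0.0564) were not called, with 0.5 added Cxcl1 was not (0.0516), and with the 2 groups fitted alone Ccl7 was not (0.0901). Ccl2 (-1.26 ± 0.44, adjusted p = 0.0628) was called without replicate 5 at 12 h (0.0409) or at 24 h (0.035), with 5 added (0.0115) and with library weights (0.0384). Ccl3 (-1.22 ± 0.47, adjusted p = 0.0872) was called without replicate 5 at 12 h (0.0241).

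Set against its own 4 h mean, each gene kept a different share of its peak. At 12 h, Ccl5 stood at 75.8% of the 4 h mean at 22 °C and at 49.4% at 30 °C. The CXCR2 ligands came next at 22 °C, with 48.9% for Cxcl2 and 33.7% for Cxcl1, while at 30 °C these shares were 33.2% and 13.5%. The CCR2 ligands kept 22.7% (Ccl2) and 20.9% (Ccl7) at 22 °C, and 19.3% and 17.9% at 30 °C. The MIP-1 genes kept least, 10.6% (Ccl3) and 3.5% (Ccl4) at 22 °C and 10.1% and 4.15% at 30 °C. By 24 h the shares ranged from 0.696% for Ccl4 to 55.6% for Ccl5 at 22 °C, and from 2.68% to 37.6% for the same genes at 30 °C. Differences between genes in these shares were not tested.

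**Figure D2:**
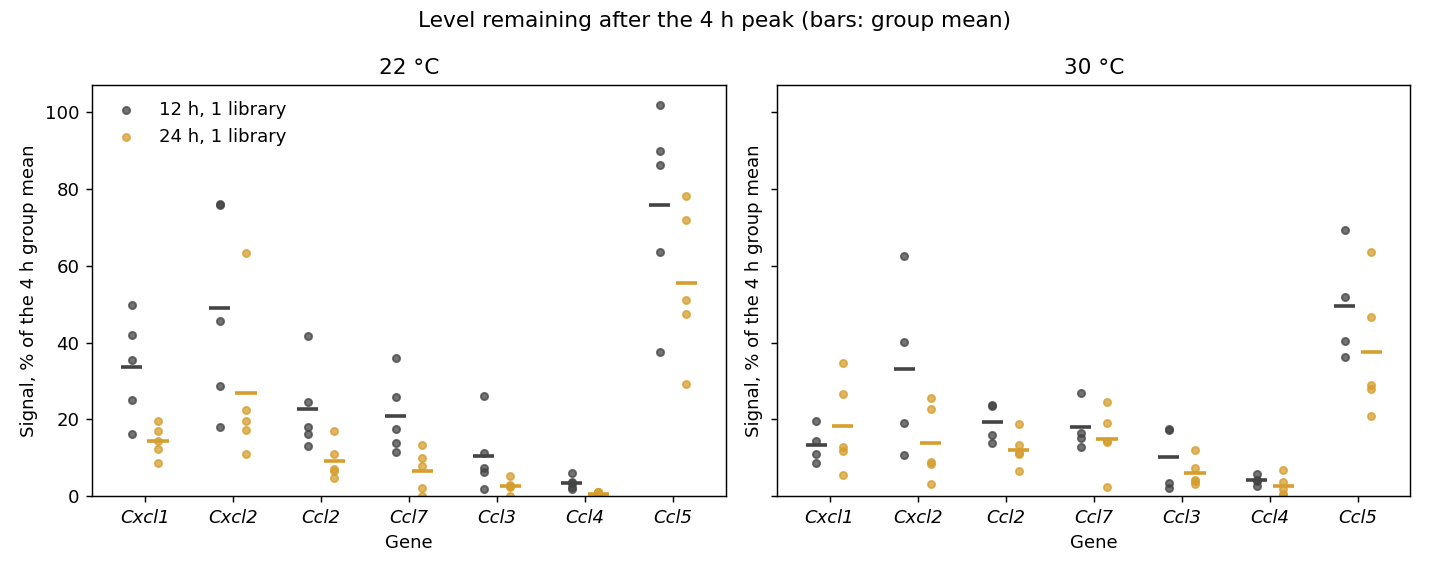
Signal of each chemokine transcript at 12 h (dark) and 24 h (yellow) as a percentage of its 4 h group mean, for 22 °C (left) and 30 °C (right). Points are libraries and bars are group means, from 75.8% for Ccl5 down to 3.5% for Ccl4 at 12 h and 22 °C.

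Housing temperature made no called difference to any of the 7 transcripts at 0, 4 or 12 h. Of all tested genes, 0.506%, 0.207% and 4.26% were called in either direction at these times. At 0 and 4 h none of the 7 had an unadjusted p under 0.05 in limma either. At 4 h the estimates of 30 °C minus 22 °C ran from -0.40 (Cxcl2, 95% interval -1.62 to 0.82) to 0.49 (Ccl7, -0.62 to 1.60). These intervals leave room for differences of over 1 log2 unit in several genes. At 12 h Cxcl1 was lower at 30 °C by an estimate of -1.16 ± 0.41, with an unadjusted p of 0.00802 and an adjusted p of 0.107. It was called without replicate 5 of the 22 °C group (0.0388) and with library weights (0.0318).

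At 24 h, Ccl7 was higher at 30 °C than at 22 °C by 1.54 ± 0.49 (limma adjusted p = 0.0249) and Ccl4 by 1.46 ± 0.52 (adjusted p = 0.0455), so 2 of the 7 were called higher, against 9.93% of tested genes, and 0 lower, against 8.71%. Cxcl2 had the opposite sign, -1.43 ± 0.54, and missed the threshold (adjusted p = 0.0591). Ccl3 (0.85 ± 0.47), Ccl2 (0.50 ± 0.44), Cxcl1 (0.24 ± 0.39) and Ccl5 (-0.10 ± 0.46) were not called, with adjusted p from 0.217 to 0.914. In none of the 7 were the 24 h libraries of the temperatures fully separate, against 11.3% of tested genes that separated in either direction.

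These 24 h calls rested on few reads and on single libraries. Ccl4 was read 0 or 2 times in each 22 °C library and 1 to 15 times in each 30 °C library. Its call was lost without any of replicates 2 and 5 at 22 °C or 2, 3 and 5 at 30 °C (limma adjusted p = 0.0817 to 0.19). It was also lost with 5 added to the signal (0.0656), with no filter (0.111), with the 2 groups fitted alone (0.152) and with library weights (0.0535). The call of Ccl7 was lost without any of replicates 1 and 4 at 22 °C or 1, 3 and 5 at 30 °C (0.0531 to 0.111), with no filter (0.0618) and with the 2 groups fitted alone (0.127). In the other direction, Cxcl2 was called lower at 30 °C without replicate 2 at 22 °C (0.0424), without replicate 2 (0.0288) or 3 (0.0394) at 30 °C, with 5 added (0.0379) and on the TPM column (0.0438).

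Markers of other liver cells differed between the same 24 h groups. Of the tested markers, 7 of 11 endothelial, 3 of 11 Kupffer cell, 2 of 6 monocyte and 2 of 7 stellate cell genes were called higher at 30 °C, against 9.93% of tested genes. In these lists 0 were called lower, against 8.71%. The neutrophil, T and NK cell and hepatocyte lists are not in these counts. Against 0 h, the hepatocyte genes Cps1 and Ahsg were called lower at 24 h at 22 °C (-2.51 ± 0.24 and -0.90 ± 0.17, limma). At 30 °C neither was called (0.05 ± 0.23 and 0.26 ± 0.16). Alb, Apoa2, Ttr and Serpina1c were called lower and Fgb higher at both temperatures. Apoa1 was called at neither, and Hnf4a was called higher at 30 °C alone. The monocyte markers include Ccl9, itself a chemokine, which was among those called higher. With it, the summed signal of the 12 monocyte markers was 248.7 to 322 at 30 °C and 154.7 to 213.4 at 22 °C. That of the 12 Kupffer cell markers was 101.7 to 168.7 and 48.8 to 138.2, that of the 12 endothelial markers 289.1 to 378.9 and 161.3 to 299.3, and that of the 10 stellate cell markers 487.3 to 713.2 and 466.8 to 594.4. The monocyte sums did not overlap, and sums without Ccl9 were not taken. The other 3 sums overlapped. So did the sums of the 14 neutrophil markers without Lcn2, 213.9 to 403.5 at 30 °C and 150.4 to 328.9 at 22 °C. Sums of the 14 T and NK cell markers (18.86 to 33.13 and 10.68 to 27.36) and the 9 hepatocyte markers (66630 to 77410 and 61840 to 76580) overlapped too. Among the monocyte, Kupffer cell, endothelial and stellate cell markers only Clec4g, an endothelial gene, was at 0 throughout a 24 h group, the one at 22 °C. The part of these cell markers in the higher Ccl4 and Ccl7 was not tested.

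Whether the response to LPS itself differed between temperatures was tested as an interaction. It was called for 0 of the 7 genes at 4, 12 and 24 h, against 0.0115%, 0.276% and 8.95% of tested genes in either direction. At 4 and 12 h, 0 of the 7 had an unadjusted p under 0.05. At 24 h Ccl7 was the exception, with a rise over 0 h that was larger at 30 °C by 1.81 ± 0.71 (95% interval 0.36 to 3.26, limma adjusted p = 0.11). It was called without replicate 4 of the 30 °C 24 h group (2.27, adjusted p = 0.0246), the library in which Ccl7 was low.

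**Figure D3:**
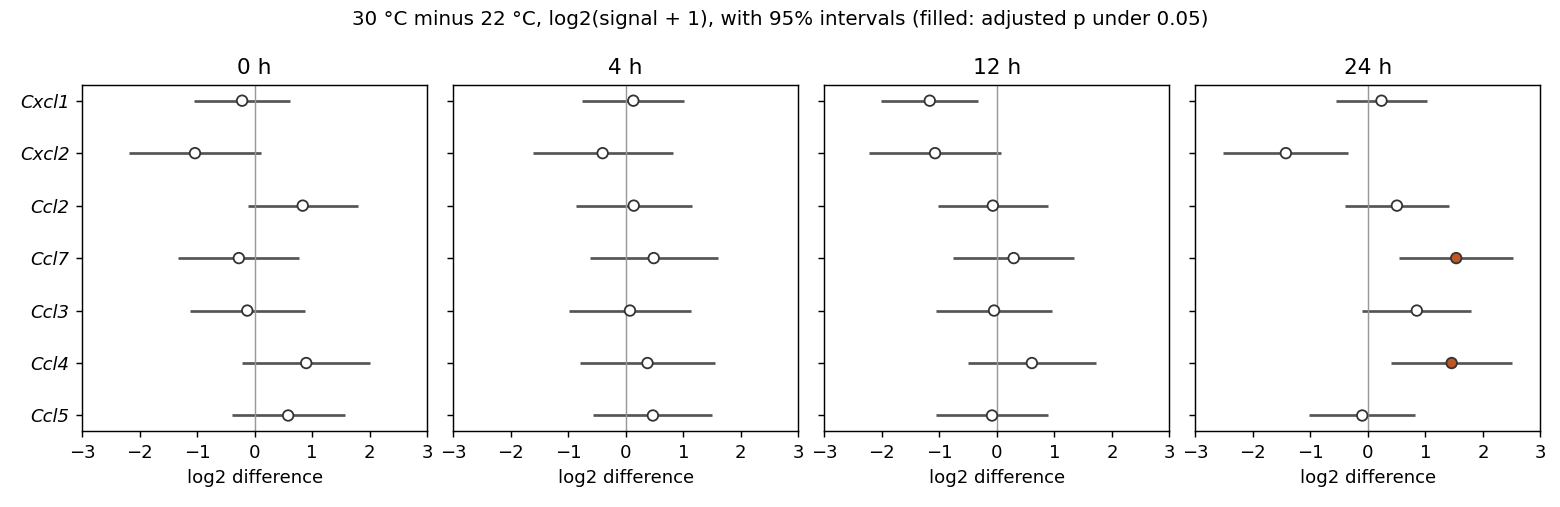
Difference between 30 °C and 22 °C for each chemokine transcript at 0, 4, 12 and 24 h, as log2(signal + 1) with 95% intervals from limma. Filled points have an adjusted p under 0.05, which only Ccl7 (1.54) and Ccl4 (1.46) at 24 h reached.

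Levels of different genes were compared on the deposited TPM column, which is scaled by transcript length although reads come from 3′ ends. Cxcl1 was first in every group, with 1341 ± 235 (SD) at 4 h at 22 °C and 1468 ± 111 at 30 °C. At 4 h it was followed at 22 °C by Ccl4 (285 ± 75.8), Ccl2 (196 ± 58.0), Cxcl2 (129 ± 41.2), Ccl5 (89.0 ± 9.44), Ccl7 (65.2 ± 14.8) and Ccl3 (57.1 ± 5.59). From Ccl4 down, each neighbour in this order lay within the sum of the SDs of the pair, and only the step from Cxcl1 to Ccl4 was wider. At 30 °C the same level was 377 ± 124 for Ccl4, 210 ± 14.6 for Ccl2, 127 ± 23.7 for Ccl5 and 96.0 ± 17.1 for Cxcl2, so that Ccl5 and Cxcl2 changed places within their spread. By 24 h the order had changed: Ccl5 was second at both temperatures (50.5 ± 17.9 at 22 °C and 48.1 ± 22.4 at 30 °C) and Ccl4 sixth (2.03 ± 1.85 and 10.2 ± 10.2).

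Across all 36 libraries the 21 pairs of these genes had Pearson correlations of log2(signal + 1) from 0.54 (Ccl4 with Ccl5) to 0.93, with a median of 0.84. The libraries share the time course. After each group mean was removed, over the 27 libraries after LPS, the correlations ran from 0.01 to 0.73 with a median of 0.26. The pairs Cxcl1 with Ccl7 (0.73) and Ccl2 with Ccl7 (0.72) were at the top. Of the other 8701 tested genes, 13 were closer to Cxcl1 than Ccl7 was, and 3 were closer to Ccl2. The neighbours Cxcl1 and Cxcl2 varied with little relation within groups (0.22), as did Ccl3 and Ccl4 (0.09). Ccl3 and Ccl4 were under 3 reads in all 22 °C libraries at 24 h and in some libraries of other groups. Counting error at such levels lowers a correlation, so 0.09 does not show that these genes vary apart.

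Of 8222 other named genes, those most like Cxcl1 over the 36 libraries by Pearson's r of log2(signal + 1) were B4galt1, Tnfaip3 and Myd88 (0.94 each). Tnfaip3 encodes A20, a feedback inhibitor of NF-kB, and Myd88 the adaptor of Toll-like receptors. For Cxcl2 they were Gna13 (0.93), Steap4 and Cebpb (0.92 each), and for Ccl2 Dusp2 (0.94), Nck1 and Slc30a5 (0.93 each). Ccl7 was most like Bcl3 (0.93), a nuclear IkB family member, then Tnfaip3 and Lgals8 (0.91 each). Znfx1 was among the 3 nearest of both Ccl3 and Ccl4 (0.93 each), beside Daxx and Pim1 for Ccl3 and Clic4 and Zc3hav1 for Ccl4. Ccl5 was nearest to Tacc2, Sbno2 (0.93 each) and H2-D1 (0.92), the last an MHC class I gene. By the mean over the 7, Tnfaip3 (0.88), B4galt1, Snx10, Vcam1 (0.87 each) and Dusp2 (0.86) came first.

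Other chemokines were induced with them. Of 10 tested other CXC chemokines, 7 were called higher and 1 lower at 4 h at 22 °C, and at 30 °C 6 and 1. The shares of all tested genes called higher were 15.8% and 17.8%. The CXCR3 ligands Cxcl9 (5.61 ± 0.17 at 22 °C and 5.80 ± 0.16 at 30 °C) and Cxcl10 (6.87 ± 0.38 and 6.94 ± 0.37), which attract T cells, rose, and so did Cxcl5 (4.46 ± 0.51 and 3.61 ± 0.48), another CXCR2 ligand. Cxcl12, a constitutive chemokine of stromal cells, fell by 1.96 ± 0.26 and by 1.62 ± 0.25. Only 2 of 16 other CC, CX3C and XC chemokines passed the filter, and of these Ccl9 rose, by 0.84 ± 0.17 and 0.53 ± 0.17. At 24 h, 9.93% of tested genes were called higher at 30 °C than at 22 °C and 8.71% lower. Of the 10 CXC genes, 2 (Cxcl12 and Pf4) were called higher and 3 lower (Cxcl9, Cxcl10 and Cxcl14). Of the other 2 chemokines Ccl9 was called higher. Cxcl9 (-1.45 ± 0.15, limma adjusted p = 2.84e-08) and Cxcl10 (-1.41 ± 0.34, adjusted p = 0.00351) were thus lower at 30 °C, while Cxcl12 was higher (1.36 ± 0.23, adjusted p = 6.91e-05).

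Among receptors, Cxcr2 passed the filter and was not called at 4 h at 22 °C (-0.14 ± 0.51) or at 30 °C (0.19 ± 0.49). Group means of Cxcr2 lay between 13.6 and 44.8, the highest through 1 library at 111. Ccr2 did not exceed a group mean of 1.87. The receptor-like Ccrl2, which binds the attractant chemerin without signalling, rose by 6.06 ± 0.54 at 22 °C and by 5.42 ± 0.51 at 30 °C, and the scavenging receptor Ackr1 by 2.33 ± 0.63 and by 2.95 ± 0.60. A further list held LPS sensors, cytokines and NF-kB genes, and also feedback inhibitors such as Tnfaip3. Of its 21 tested genes 19 rose at 4 h at each temperature, with 0 lower. Over all tested genes 15.8% rose at 22 °C and 17.8% at 30 °C. Cd14 rose by 4.87 ± 0.31 and by 4.98 ± 0.29, and Nfkb1 by 2.73 ± 0.23 and by 3.22 ± 0.22. The early macrophage cytokines Tnf (3.76 ± 0.61 and 4.41 ± 0.58) and Il1b (3.34 ± 0.46 and 3.56 ± 0.43) rose as well.

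Transcripts abundant in neutrophils peaked later than Cxcl1. The calgranulins S100a8 and S100a9, abundant in neutrophils and monocytes, rose at 4 h by 3.60 ± 0.35 and 3.95 ± 0.39 at 22 °C and by 3.37 ± 0.33 and 3.63 ± 0.37 at 30 °C. Between 4 and 12 h they rose further, by 1.34 ± 0.33 and 1.24 ± 0.37 at 22 °C (limma adjusted p = 0.00252 and 0.0122) and by 2.10 ± 0.35 and 1.86 ± 0.39 at 30 °C (1.53e-05 and 0.000347). In the same step Cxcl1 fell by 1.65 ± 0.41 at 22 °C (adjusted p = 0.00295) and by 2.95 ± 0.44 at 30 °C (2.63e-06). The summed signal of 14 neutrophil markers, without Lcn2, which hepatocytes also make, went at 22 °C from 28.8 to 31.9 at 0 h to 94.3 to 143.5 at 4 h and 241.8 to 351.4 at 12 h. At 30 °C it went from 34.1 to 59.2 to 145.4 to 248.2 and to 363.3 to 555.5. The 30 °C median at 4 h was 149.3. The sum includes Cxcr2, which was not called at 4 h and stood high in a single 30 °C library at that time. At 0 h 6 of the 14 at 22 °C (Mmp8, Mmp9, Retnlg, Ly6g, Camp and Ltf) and 4 at 30 °C (Retnlg, Ly6g, Ngp and Ltf) were at 0 in every library. After LPS none was. Of 6 tested monocyte markers 3 rose (Plac8, Ms4a6c and the chemokine Ccl9) and 1 fell at 4 h at each temperature. Of 11 Kupffer cell markers 1 rose at each while 3 fell at 22 °C and 5 at 30 °C. Endothelial markers fell in 8 of 11 cases at 22 °C and in 6 of 11 at 30 °C, with 1 higher at each, and stellate cell markers in 3 of 7 at each. Of all tested genes 13.6% and 14.6% were called lower, and 15.8% and 17.8% higher. The only T and NK cell marker that passed the filter, Gzmb, rose by 3.48 ± 0.50 and by 3.58 ± 0.47. How far changes in these cells account for the chemokine levels was not tested.

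**Figure D4:**
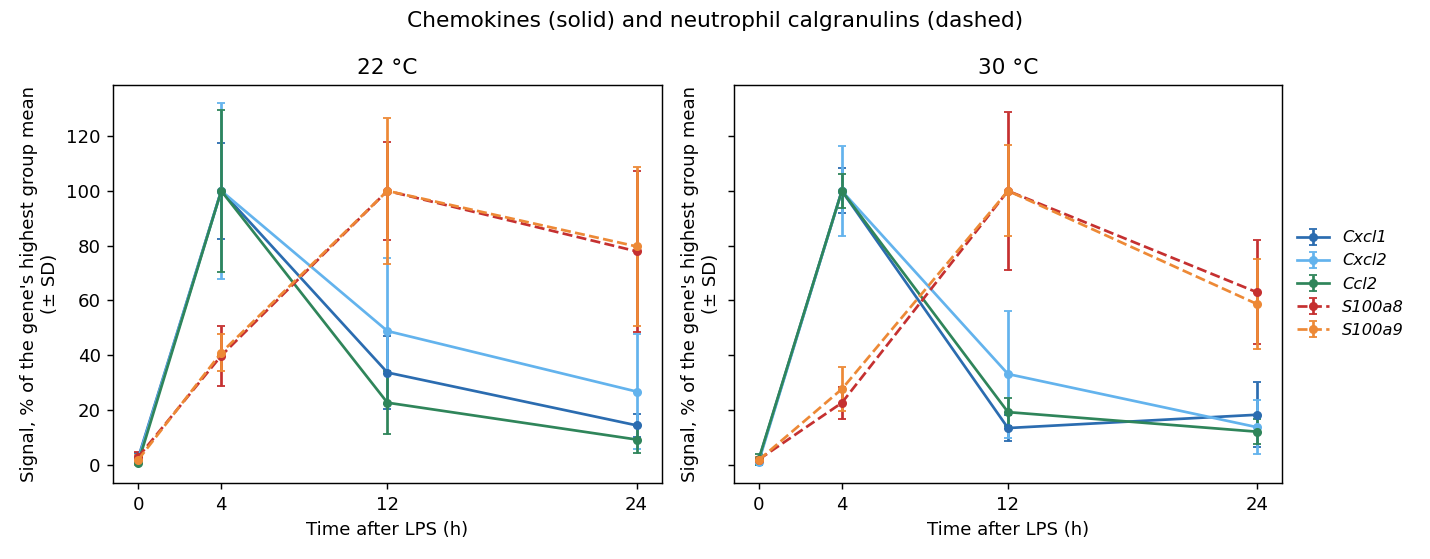
Mean signal ± SD of Cxcl1, Cxcl2 and Ccl2 (solid) and of S100a8 and S100a9 (dashed) as a percentage of each gene's highest group mean, against hours after LPS, at 22 °C (left) and 30 °C (right). The chemokines peak at 4 h and the calgranulins at 12 h at both temperatures.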

How the data were processed

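Per the labels' protocols, liver RNA was sequenced by a variant of CEL-Seq2. Trimmomatic, kallisto and sleuth are named in the submitters' processing notes. For these tools no version was given in the sources used here, nor were a genome build, a transcript index or any collapsing of molecular identifiers. The authors deposited 1 table for all samples with a scaled reads-per-base signal per gene and sample, used as the main unit, and a TPM column. Estimated reads were derived by taking the commonest low value of the deposited signal in each library as 1 read. They serve to show depth and the limit of detection, and they were pooled for the read ratios. Gene names came from a GENCODE annotation table, which named 34406 of 34829 genes.

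The 8702 genes whose signal averaged 5 or more over the 36 libraries entered limma 3.58.1 (R 4.3.3), on log2(signal + 1) with 1 mean per group and a mean-variance trend. P-values were two-sided and adjusted by the Benjamini-Hochberg method within each of 17 contrasts over all tested genes, with a threshold of 0.05. Differences are given ± SE. The fit was tested on simulated data for the 4 h contrast at 22 °C: 92 of 97 genes changed 4-fold with a mean of at least 20 were recovered. Apart from Cxcl1, the chemokines followed here had mean signals of 0.63 (Ccl3) to 4.14 (Cxcl2) at 0 h at 22 °C. The recovery rate does not cover genes at such levels. Intervals on pooled estimated reads are exact (Clopper-Pearson, 95%). The estimates are not whole reads in every gene. Those of Cxcl2, Ccl2 and Ccl5 move in steps of 1.37, 1.2 and 1.16, so their intervals may be too narrow. The estimates of Cxcl1 are not whole either, as with 15.4 in replicate 3 of the 22 °C 0 h group. No interval is given for Cxcl1. Alternatives were 0.5 or 5 added to the signal, no filter (22490 genes), the TPM column, upper quartile rescaling, each contrast fitted on its own groups, the replicate number as a block, library weights, and each library left out in turn.

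The 7 genes, the gene lists and the tests were chosen with earlier results of these data known. Genes named beside the 7 were up to 4 of smallest p per list among those called at 4 h, with Tnf, Il1b, Cxcl9, Cxcl10, Cxcr2 and Ccr2, and the 3 of highest correlation with each gene and the 5 of highest mean correlation. Clec4g, Pf4 and Cxcl14, and the hepatocyte genes set against 0 h at 24 h, were named after their values were seen. A result for 1 gene is not reported here.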

Additional observations from a re-analysis of the deposited data

Results flagged for a closer look

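In 1 of the 56 combinations of gene and group, a single library lay far from the rest of its group. Cxcl2 in replicate 5 of the 22 °C 24 h group had a signal of 135.5, while the other 4 libraries ranged from 23.6 to 48. The gap exceeded Dixon's 95% critical value. Chance gives such a gap in about 1 group in 20. Without this library Cxcl2 at 24 h was -1.05 (log2) at 30 °C against 22 °C, in place of -1.43 with it, and was called in neither fit (limma adjusted p = 0.175 and 0.0591).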

How the results depend on the processing

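All 7 genes remained called higher at 4 h under every setting and with any library left out, and at 12 h the count fell by at most 1, Ccl4 at 30 °C. The temperature calls at 24 h changed with many settings. The count higher at 30 °C, 2, became 1 with 5 added to the signal, 0 with no filter, 0 with the contrast's groups alone and 1 with library weights, and ranged from 0 to 2 with a library left out. The count lower at 30 °C at 24 h, 0, became 1 with 5 added and 1 on the TPM column, and 0 to 1 with a library left out. At 12 h the count lower became 1 with library weights, and 0 to 1 with a library left out. From 12 to 24 h the count lower at 22 °C, 3, became 1 with no filter, 2 with 0.5 added or the groups alone, 4 with 5 added or library weights, and 1 to 5 with a library left out, and that at 30 °C 0 to 1. The interaction count at 24 h, 0, ranged from 0 to 1 with a library left out. At 24 h the temperature difference of Ccl5 (-0.10) turned to 0.071 with upper quartile rescaling and ranged from -0.31 to 0.078 with a library left out, and that of Cxcl1 (0.24) from -0.063 to 0.59. The causes were not tested, except that with no filter 22490 genes share the adjustment. Over all 7 genes and 17 contrasts, the direction changed in 13 of 952 comparisons with another setting and in 54 of 1260 with a library left out, and none of these 67 had a call in either fit. The replicate numbers did not pair the libraries: 2 of 118 pairs with the same number had deviations correlated over 0.1, against 11 of 448 with different numbers, and 9 of 36 libraries were closest to their own number. With the replicate number as a block, the count lower from 12 to 24 h at 22 °C became 2, since Cxcl1 was not called (adjusted p = 0.0505), and the other counts did not change. Over all tested genes, 44 calls of temperature at 0 h became 13 with the contrast's groups alone, and 18 at 4 h became 7, or 3 with upper quartile rescaling. At 12 h 371 became 798 with library weights, and from 12 to 24 h at 22 °C 924 became 603 with the groups alone. The interaction at 4 h went from 1 to 0 to 2, and that at 12 h from 24 to 3 with no filter, 76 with the replicate block and 75 with library weights. With a library left out, the temperature count over all tested genes ranged at 4 h from 4 (without replicate 3 at 30 °C) to 26, and at 12 h from 187 (without replicate 2 at 22 °C) to 590 (without replicate 5 at 22 °C). The interaction count ranged at 4 h from 0 to 3, and at 12 h from 3 (without 22 °C replicate 2 or 30 °C replicate 1 of 12 h) to 121 (without 22 °C replicate 5 of 12 h). The other comparisons moved by less than 1.5 times. Depth limits the 0 h values, where most estimates stood under 3 reads.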

Other observations

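The balance of the CXCR2 ligands was examined after their values had been seen. The log2 ratio of Cxcl1 to Cxcl2 within a library, with 1 added to both signals, averaged 4.27 ± 1.31 (SD) at 24 h at 30 °C and 2.60 ± 0.87 at 22 °C, a difference of 1.66. The exact two-sided permutation test gave p = 0.0635, and 0.171 after Benjamini-Hochberg adjustment over the 4 times. At 4 h the means were 3.86 ± 0.23 and 3.33 ± 0.40, a difference of 0.53 (exact permutation p = 0.0857, adjusted 0.171). At 12 h the difference was -0.09 (exact permutation p = 0.921) and at 0 h 0.82 (exact permutation p = 0.27). No difference passed the threshold, and at 24 h the ranges overlapped, from 2.84 to 5.71 at 30 °C and from 1.40 to 3.63 at 22 °C.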
